A study of Glycine max with 36 samples.

Results

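Seedling cotyledons of soybean (Glycine max, cultivar Williams) were compared between late stages, when they are green or greening above ground, and early stages, when they are yellow or mostly yellow. The comparison covers 6 of the 36 small RNA libraries of the series, 3 early and 3 late, with 1 library per stage, and was made on the hits of each library on 52872 annotated genes. The early libraries are stage 1 (yellow seed, imbibed, 48 hr below ground), stage 3 (yellow and below ground, radicle of 16 to 25 mm) and stage 4 (pushing out of the soil, yellow with green edges, hypocotyl of 40 to 50 mm). The late libraries are stage 5 (above ground, starting to straighten, yellow and green), stage 6 (mostly green and straight) and stage 7 (fully green, on plantlets of 7 to 8 cm with the unifoliate leaves developed). Stage 2, with a radicle of 10 to 15 mm, was left out because its library held 0.965 M gene hits. Values of 1 leaf library, from seedlings of 10 days, and 1 mature dry cotyledon library are given beside these as a description. Williams has a yellow seed coat with a black hilum and the I locus genotype i-i R T, so all 6 libraries share it, and no library carries a treatment beyond greenhouse growth. Stage is part of the spread within each group, the labels do not say that libraries came from separate plants, so the p-values reflect just the variation among the 6 libraries. They were made with either of 2 kits on either of 2 sequencer models, which the labels do not assign to libraries, so kit and stage cannot be told apart. Read lengths do not appear in the count table, so that microRNAs, short interfering RNAs and fragments of messenger RNA are counted together.

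The cotyledons of soybean are lifted above the soil by the hypocotyl. They first feed the seedling from stored protein and oil, and then become green organs that photosynthesise for some time before they senesce. Small RNAs of plants are cut by Dicer-like enzymes and loaded into Argonaute proteins. MicroRNAs pair almost perfectly with their target transcripts, so a mature microRNA aligned to a transcript appears as a hit on its antisense strand. Hits on the sense strand can come from fragments of the transcript itself, and hits on both strands from short interfering RNAs cut out of double-stranded RNA. A hit on a gene is therefore not a measure of its expression, and gene names below are those of the deposited Arabidopsis description.

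The 6 libraries held 20.1 to 35.8 M gene hits from 21.4 to 34.8 M reads, and 25675 to 28518 genes had a hit in each. A read can count on several genes. Hits exceeded reads at stage 6 (29.7 M from 21.7 M reads) and stage 7 (35.8 M from 34.8 M), but not at stages 1, 3, 4 and 5. The 20 most abundant genes took 72.6 to 78.9% of the hits. Levels are given as CPM, the gene's share of a library's gene hits scaled to a sum of 1000000, on which 3 hits correspond to 0.0838 to 0.149 CPM, and intervals from counts would cover counting error only. Pearson's r of log2(CPM + 1) over 12600 genes, which share the abundant small RNAs, was 0.968 between stages 1 and 3, 0.960 between 3 and 4, 0.936 between 4 and 5, 0.907 between 5 and 6 and 0.977 between 6 and 7. Stage 5 was thus less like stage 6 than stage 4 was (0.948), and r was 0.879 between stages 1 and 5. The green tissue markers were low at stage 1 and higher from stage 4. Hits on light-harvesting genes summed to 2.47 CPM at stage 1 and 42.0 CPM at stage 4, and to 24.2 to 47.8 CPM in the late libraries. The seed coat MYB markers summed to 0.404 to 1.82 CPM, with 4 of 11 genes without a hit in any of the 6 libraries. Markers of the shoot apex summed to 53.1 to 54.9 CPM early and 59.0 to 68.3 CPM late, and 27 of 84 had no hit. Seed reserve markers summed to 30.5 to 51.1 CPM early and 24.3 to 42.5 CPM late, and 46 of 97 had no hit. The part of other tissues in the results was not tested.

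No gene passed the test between late and early cotyledons, while many genes had values that did not overlap between the groups. By edgeR's quasi-likelihood test with Benjamini-Hochberg adjustment, 0 of 12600 genes were higher and 0 lower at an adjusted p under 0.05, which is 0% called each way, and the smallest adjusted p was 0.0884. At an unadjusted p under 0.05, 1740 genes stood out, 1096 higher (8.7%) and 644 lower (5.11%) in the late stages. DESeq2 called 323 genes higher (2.53%) and 133 lower (1.04%) of 12781, and limma-voom, added after these counts were seen, called 0. In CPM, 1217 genes (9.66%) were higher in every late library than in any early library, and 1131 (8.98%) were lower. With TMM factors applied these were 1356 (10.8%) and 1252 (9.94%), and the counts in CPM are used below. Reads can match several genes: 5226 of the tested genes fall into sets of near-equal counts (within 5% in all 6 libraries, or within 3 hits where both are under 60), and the genes without overlap form 937 sets higher and 828 lower. Below, a gene or list is described as higher or lower by these values, and none of the differences passed edgeR's threshold. Every count without overlap stands beside the 9.66 and 8.98% of all tested genes. Summed hits of a list may count shared reads once per gene, so a sum is not an amount of small RNA. Named genes can lie in sets of near-equal counts also where this is not repeated. Fewer cells of a type and less RNA per cell cannot be told apart in such whole-organ samples.

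The stages next to the border between the groups bear on these counts. For each gene a midpoint was taken between the mean log2(CPM + 1) of stages 1 and 3 and that of stages 6 and 7. Among the 1217 higher genes, stage 4 already lay past this midpoint in 285 (23.4%), and stage 5 was still short of it in 204 (16.8%). Among the 1131 lower genes these were 388 (34.3%) and 192 (17%). Without stage 4, edgeR called 78 genes higher and 29 lower, and without stage 5 it called 65 and 9. With both left out, edgeR called 1059 higher and 595 lower genes of 13349 between stages 6 and 7 and stages 1 and 3. This fit has 2 libraries per group. They are the pairs with the highest r among the 6 libraries (0.968 between stages 1 and 3, 0.977 between 6 and 7), so the spread within groups is that of the most alike libraries. Leaving out stage 1, 3, 6 or 7 gave 0 calls each way. The highest of the 6 values most often lay at an end or at the border: in stage 1 for 34.7% of tested genes, in stage 5 for 22.7% and in stage 7 for 20.7%. The lowest value lay in stage 6 for 30.5%. These shares are from CPM without TMM factors, which were largest at stage 1 (1.21) and smallest at stage 6 (0.84). A larger factor lowers the scaled values of a library, and the part of this scaling in the shares was not tested.

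**Figure D1:**
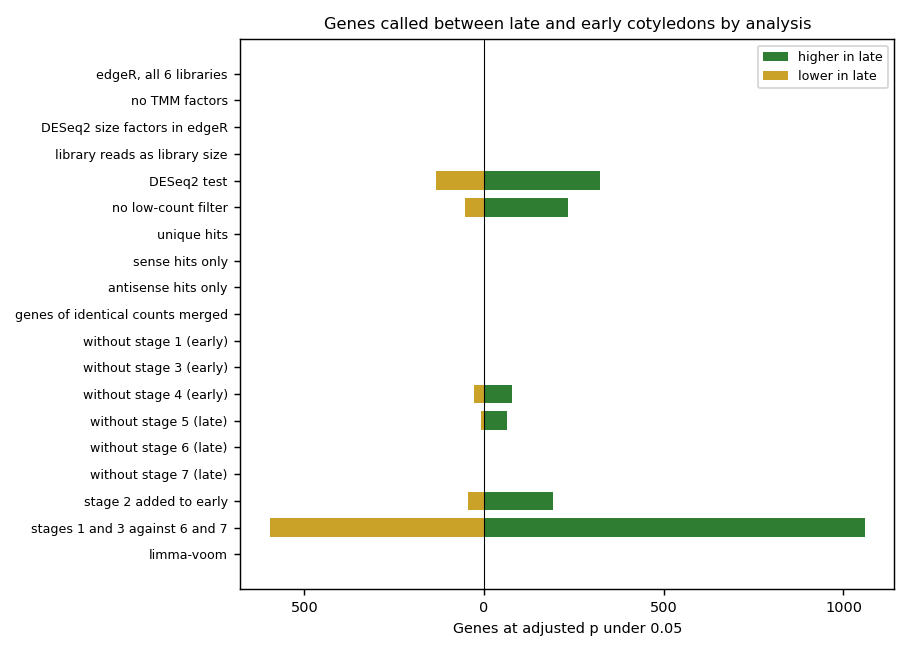
Genes called at an adjusted p under 0.05 (x axis, number of genes, higher to the right and lower to the left) in each analysis (y axis). The edgeR test on all 6 libraries has 0 genes, and the contrast of stages 1 and 3 with 6 and 7 has 1059 higher and 595 lower.

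Among lists of related genes, 14 of 19 chalcone synthase genes, 11 of 20 of the Rubisco and Calvin cycle list and 16 of 40 of the auxin response list were higher without overlap in late cotyledons, beside 9.66% of all tested genes. Of light signalling and clock genes 11 of 38 were lower, beside 8.98%. The median log2 fold change (late over early, after TMM scaling) was 0.05 over all tested genes. It was 2.25 for 19 chalcone synthase genes, 1.96 for 20 Rubisco and Calvin cycle genes, 0.84 for 52 genes of photosystems and light harvesting, 0.84 for 40 genes of auxin response and 0.54 for 372 resistance genes. It was −0.26 for 38 genes of light signalling and the clock, −0.28 for 34 SPL genes and −0.35 for 19 START homeobox genes. Genes of near-equal counts are not merged in these values. The 14 higher chalcone synthase genes form 5 sets, the 11 of the Rubisco list 10 and the 16 of auxin response 7. The 19 tested chalcone synthase genes form 10 sets, and so do the 34 SPL genes. A median can thus rest on the largest set of a list. The lists were chosen with earlier results of these data known, and their counts are a description.

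**Figure D2:**
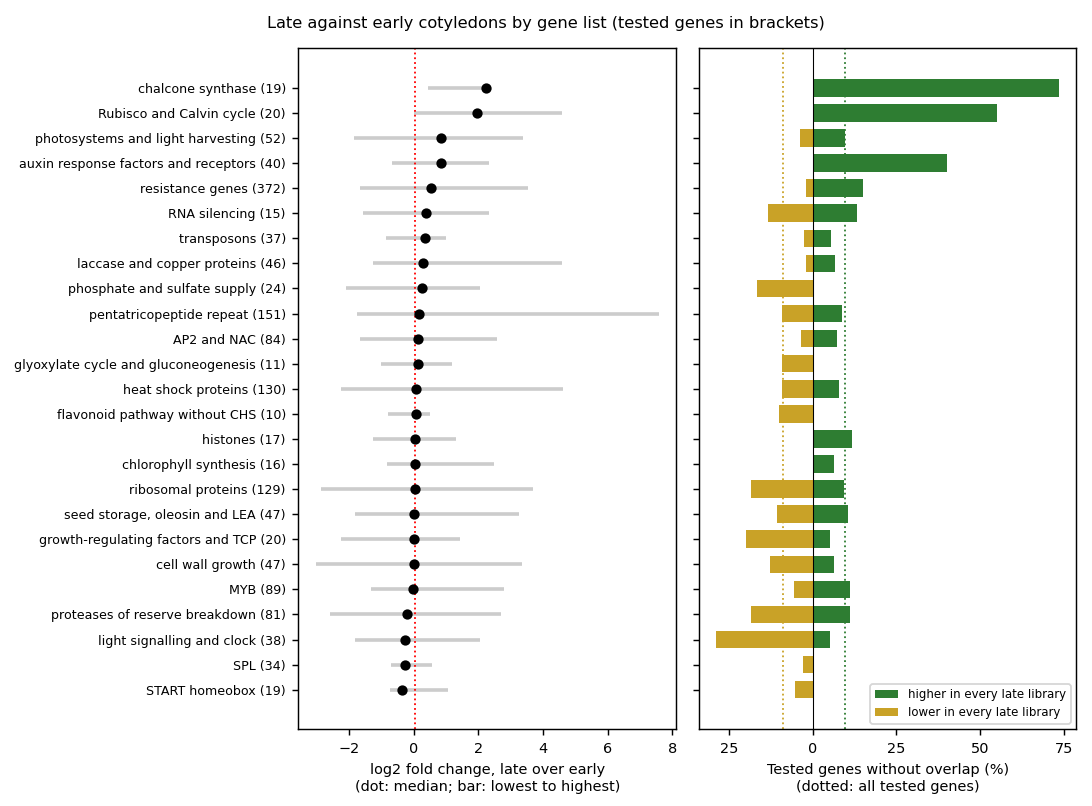
Median (dot) and range (bar) of the log2 fold change of the tested genes of each list (left, x axis), and the percentage of them without overlap between the groups (right, x axis, higher to the right and lower to the left). Genes of near-equal counts are not merged. Dotted lines mark all tested genes, 0.05 at left and 9.66 and 8.98% at right; the upper end of the pentatricopeptide bar is a gene with no early hit, whose fitted fold is no bound.

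Sense hits on Rubisco genes were near 0 in the underground stages and abundant from emergence on. Rubisco, which fixes carbon dioxide in the chloroplast, has a small subunit encoded by nuclear RbcS genes. Hits on 7 RbcS genes summed to 1.00, 4.89 and 99.0 CPM at stages 1, 3 and 4 and to 117.1, 130 and 115.2 CPM at stages 5, 6 and 7. Stage 4 thus stood with the late libraries, but just below them. Of 6 tested genes, 5 were higher in every late library, with log2 fold changes of 1.75 to 2.15 for the 6. For Glyma.19G046600 the hits were 0.154, 1.15 and 24.9 CPM early and 29.1, 32.3 and 28.5 CPM late, all on the sense strand. The groups do not overlap, but the early values are spread widely (8.73 ± 14 CPM against 29.9 ± 2.06, SD, n = 3 each), and the difference of 1.75 ± 1.37 log2 (± SE) had an edgeR adjusted p of 0.583. Glyma.13G046200 had 0.540, 1.40 and 24.4 CPM early and 29.9, 31.8 and 28.4 CPM late, and the leaf library held 9.07 CPM.

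Rubisco activase (RCA), which frees Rubisco of bound inhibitors, was lower at stage 4 than in any late library. The 5 RCA genes summed to 0.386, 0.349 and 3.93 CPM in the early libraries and to 12.4, 16.3 and 11.4 CPM in the late ones, all 5 genes without overlap, and to 4.15 CPM in leaf. Stage 4 lay between stages 1 and 3 and the late libraries, close to the leaf value. Glyma.11G221000 had 0.193, 0.175 and 1.24 CPM early and 3.09, 4.78 and 2.88 CPM late. Its difference was 2.84 ± 0.83 log2 (edgeR adjusted p = 0.202, DESeq2 adjusted p = 0.0186). Glyma.18G036400 had no hit at stages 1 and 3, 0.796 CPM at stage 4 and 3.62, 3.97 and 3.07 CPM late. By DESeq2, 4 of the 5 RCA genes passed, and 11 of the 20 Rubisco and Calvin cycle genes were higher without overlap and 0 lower, with 4.08% of the list's hits antisense.

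Light-harvesting genes of both photosystems were low below ground. The LHCA genes encode the antenna of photosystem I, and the LHCB genes that of photosystem II. Summed hits on 13 LHCA genes were 1.04, 1.50 and 10.0 CPM early and 7.48, 11.2 and 10.8 CPM late, against 5.38 CPM in leaf. Those on 22 LHCB genes were 0.849, 2.41 and 30.9 CPM early and 38.9, 12.4 and 13.8 CPM late, against 92.6 CPM in leaf. The groups overlap in both sums, since stage 4 exceeds a late library in each. Of the tested genes, 2 of 4 LHCA and 0 of 9 LHCB were higher without overlap. Both LHCA genes belong to a pair of near-equal counts, of which Glyma.07G047600 had 0, 0.105 and 0.846 CPM early and 2.44, 3.77 and 3.02 CPM late. That is a difference of 3.39 ± 1.09 log2 (edgeR adjusted p = 0.237). The LHCB gene Glyma.05G128000 peaked at the border, with 0, 0.209 and 3.78 CPM early, 5.81, 1.68 and 2.40 CPM late and 15.8 CPM in leaf.

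Genes that resemble the reaction centre genes of plastid genomes had their highest hits at stage 5. Their 22 members summed to 212, 181 and 398 CPM early and to 1649, 333 and 429 CPM late, so that the late mean rests on stage 5. Leaf held 1802 CPM. The largest part came from Glyma.13G028200, described as the photosystem II reaction centre protein A, the D1 protein that light damages and that is constantly renewed. It had 49.9, 52.6 and 177 CPM early and 1004, 165 and 218 CPM late, and the groups overlap (2.29 ± 0.83 log2, edgeR adjusted p = 0.291). Copies of plastid genes in the nuclear genome can share reads with the plastid, and the count does not separate them. Of the core genes, 2 of 15 were higher without overlap. They are Glyma.05G092100, photosystem II protein H, with 0.888, 0.419 and 1.59 CPM early and 4.76, 2.56 and 3.07 CPM late, and Glyma.15G126100, photosystem I protein J, with 0.0772, 0.279 and 0.746 CPM early and 1.50, 2.09 and 3.27 CPM late.

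**Figure D3:**
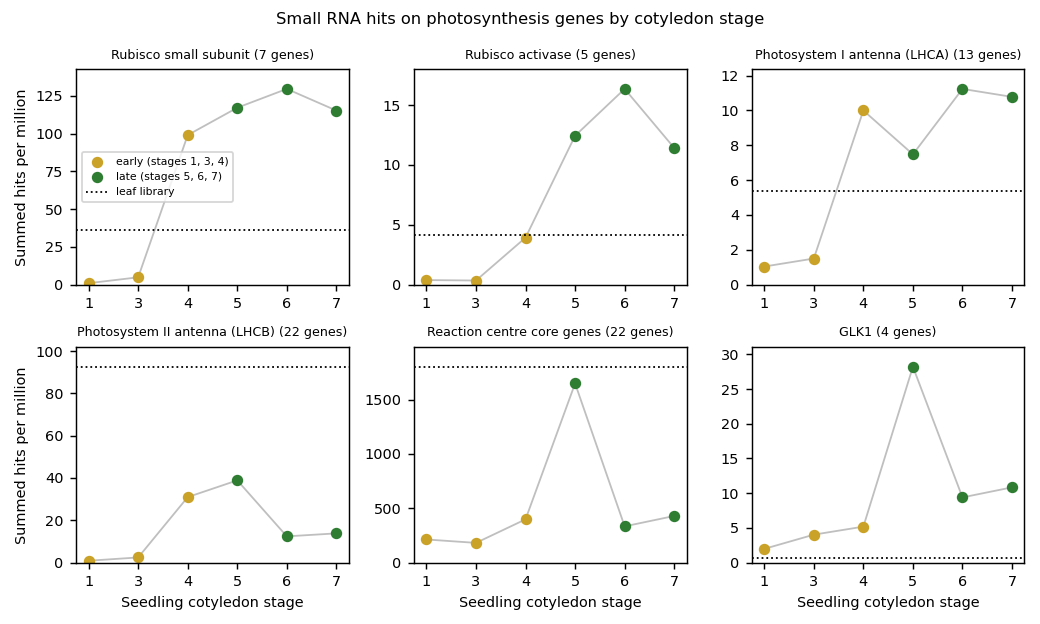
Summed CPM (y axis, starting at 0) of the genes of each group by cotyledon stage (x axis, 1 library per point, early in yellow, late in green), with the leaf library as a dotted line. RbcS goes from 4.89 CPM at stage 3 to 99.0 at stage 4 and RCA from 3.93 at stage 4 to 12.4 at stage 5, while LHCB, reaction centre genes and GLK1 peak at stage 5.

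Hits on GLK1 genes were higher in late cotyledons, and those on chlorophyll synthesis as a list were not. GLK1 is a transcription factor that turns on nuclear photosynthesis genes in Arabidopsis. Its 4 genes summed to 1.97, 4.02 and 5.17 CPM early and 28.2, 9.39 and 10.8 CPM late, with 4 of 4 higher without overlap, and stage 5 the highest. In Glyma.12G206600 the hits were 0.811, 1.08 and 1.74 CPM early and 6.46, 2.62 and 3.60 CPM late, 99.8% of them antisense (1.84 ± 0.49 log2, edgeR adjusted p = 0.171, DESeq2 adjusted p = 0.0338). In Glyma.06G289300 they were all sense, with 0.0772, 0.803 and 0.746 CPM early and 7.52, 2.02 and 1.56 CPM late. These 2 genes thus differ in strand. Glyma.12G206600 lies in a near-equal set of 3 genes, while the 4 GLK1 genes fall into 4 different sets. Its hits may therefore be shared with genes outside the family. GLK1 was singled out after its values were seen.

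Among 16 tested genes of chlorophyll synthesis, 1 was higher without overlap and 0 lower, with a median log2 fold change of 0.05. The higher gene, Glyma.08G093400, encodes a geranylgeranyl reductase, which makes the phytol tail of chlorophyll. It had 2.97, 1.92 and 1.29 CPM early and 13.2, 3.43 and 3.88 CPM late. Several members were highest at stage 5 and lay in the early range afterwards. Glyma.04G089800, a glutamyl-tRNA reductase gene of the entry step, had 1.08, 0.489 and 1.54 CPM early and 14.3, 1.41 and 1.26 CPM late, so that its difference rests on stage 5. The magnesium chelatase gene Glyma.03G137000 had 0.811, 0.908 and 4.58 CPM early and 10.4, 2.96 and 1.45 CPM late. GUN1, which acts in signalling from the chloroplast to the nucleus in Arabidopsis and stood in the same list, was highest at stage 4. Its gene Glyma.08G254000 had 1.20, 1.82 and 3.58 CPM early and 1.63, 1.24 and 0.894 CPM late, and Glyma.18G276500 had 1.24, 1.92 and 3.73 CPM early and 1.87, 1.41 and 1.26 CPM late. The groups overlap in both, with differences of −0.75 ± 0.55 and −0.55 ± 0.52 log2 (edgeR adjusted p = 0.554 and 0.642).

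Hits on genes of reserve use showed no common direction. The glyoxylate cycle and peroxisomal fatty acid oxidation turn seed oil into sugar in germinating cotyledons. Of 11 tested genes, 0 were higher and 1 lower without overlap, with a median of 0.12 log2. Glyma.06G285400, an acyl-CoA oxidase gene, had 20.4, 14.5 and 7.36 CPM early and 9.47, 6.43 and 8.68 CPM late, overlapping through stage 4. It shares near-equal counts with 7 other genes. Glyma.04G089700, a phosphoenolpyruvate carboxykinase gene of sugar synthesis, had 1.89, 1.57 and 3.28 CPM early and 9.96, 1.85 and 3.24 CPM late. In the list of seed storage, oleosin and late embryogenesis genes, 5 of 47 were higher and 5 lower. This is 10.6% each, near the 9.66 and 8.98% of all tested genes. The oleosin gene Glyma.17G086400, of a protein that coats oil bodies, went from 2.28, 0.803 and 1.04 CPM to 0.528, 0.101 and 0.447 CPM. The late embryogenesis gene Glyma.20G044800 lay on the other side, at 0.347, 0.454 and 0.0995 CPM early and 1.14, 2.46 and 4.61 CPM late. The cupin gene Glyma.10G246300 was high at stage 5 alone, with 0.734, 0.803 and 1.39 CPM early and 16.1, 1.35 and 1.14 CPM late.

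Of 81 tested protease genes, 9 were higher (11.1%, beside 9.66% of all tested genes) and 15 lower (18.5%, beside 8.98%). The median was −0.21 log2. The smallest p belonged to Glyma.08G008700, a serine carboxypeptidase-like gene with 0.502, 0.629 and 0.746 CPM early and 4.39, 4.04 and 3.02 CPM late. This is a difference of 2.70 ± 0.41 log2 (edgeR adjusted p = 0.0884, DESeq2 adjusted p = 5.44e-05), the late values far above the early ones. The cysteine proteinase gene Glyma.18G281500 had 3.40, 2.62 and 1.99 CPM early and 4.47, 8.44 and 21.1 CPM late. DegP protease 9 genes, chosen after their values were seen, summed to 31.6, 37.4 and 40.0 CPM early and 55.2, 93 and 96.7 CPM late, with 3 of 3 higher without overlap and 0% of hits antisense.

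Sense hits on ubiquitin genes were lower in all late libraries. Ubiquitin marks proteins for degradation, and its genes encode repeats of ubiquitin or fusions with ribosomal proteins. The 19 genes, grouped after their values were seen, summed to 221, 162 and 146 CPM early and 69.8, 48.5 and 85.8 CPM late. Of 17 tested genes, 17 were lower without overlap, in 15 sets of near-equal counts, with log2 fold changes of −1.54 to −1.14 and 0.467% of hits antisense. Glyma.13G117900, a polyubiquitin 10 gene, had 15.4, 9.18 and 9.35 CPM early and 3.66, 2.99 and 4.66 CPM late (−1.46 ± 0.29 log2, edgeR adjusted p = 0.105, DESeq2 adjusted p = 0.00365). Glyma.10G251900 had 34.7, 25.2 and 24.5 CPM early and 11.8, 8.71 and 15.2 CPM late. The fusion gene Glyma.01G029200 had 7.95, 5.55 and 4.68 CPM early and 2.24, 1.68 and 3.10 CPM late. Ubiquitin genes resemble each other, so their reads may be shared beyond the near-equal sets. Ribosomal protein genes went both ways, with 12 higher (9.30%) and 24 lower (18.6%) of 129 tested, beside 9.66 and 8.98% of all tested genes. Among the lower, Glyma.14G187800 (L16p/L10e family) had 7.37, 7.79 and 8.11 CPM early and 3.82, 1.38 and 1.79 CPM late. Glyma.20G168100, ribosomal protein 1, had 1.12, 1.29 and 1.19 CPM early and 0.406, 0.0336 and 0.0558 CPM late, the last 2 below the level of 3 hits.

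Small RNAs of chalcone synthase (CHS) were higher in the late cotyledons, mostly those of the gene cluster on chromosome 8. CHS is the enzyme with which flavonoid and anthocyanin synthesis begins. The cluster on chromosome 8 holds inverted CHS copies at the I locus, from which short interfering RNAs against CHS arise in yellow seed coats. In cotyledons, hits on 12 genes of the cluster summed to 31.7, 23.8 and 74.2 CPM early and to 100, 162 and 324 CPM late, and 14.8 CPM in leaf. All 12 were higher without overlap, but they form 3 sets of near-equal counts and are not independent. The sums may therefore count the same reads several times. Glyma.08G109400, in a set of 10 genes, had 2.51, 1.89 and 6.07 CPM early and 8.33, 13.6 and 27.3 CPM late. The values increase with stage from stage 3 on, and 38.3% of the hits were antisense. Its difference of 2.27 ± 0.62 log2 had an edgeR adjusted p of 0.178 and a DESeq2 adjusted p of 0.0164. Glyma.08G109300, in a set of its own, had 4.29, 3.35 and 7.61 CPM early and 9.51, 14.6 and 28.1 CPM late (1.83 ± 0.52 log2).

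CHS7 and CHS8, the copies that these small RNAs match in seed coats, showed no separation of the groups. CHS7 (Glyma.01G228700) had 3.05, 1.85 and 1.14 CPM early and 2.03, 1.24 and 4.36 CPM late. CHS8 (Glyma.11G011500) had 2.90, 1.71 and 1.14 CPM early and 2.20, 1.21 and 4.33 CPM late. In both, stage 7 is the highest and stage 4 the lowest of the 6 libraries. The differences were 0.44 ± 0.48 log2 for CHS7 and 0.53 ± 0.48 for CHS8 (edgeR adjusted p = 0.685 and 0.623), and that of CHS7 was −0.12 without stage 7. Away from the cluster, Glyma.09G075200 had 9.11, 6.84 and 8.51 CPM early and 13.2, 12.6 and 24.3 CPM late. Of the other flavonoid genes, 0 of 10 were higher and 1 lower, and the median was 0.06 log2.

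Antisense hits on auxin response factor genes were higher in late cotyledons. Auxin response factors (ARFs) bind auxin-responsive promoters, and small RNAs target several of them: miR160 the ARF10, ARF16 and ARF17 group, miR167 the ARF6 and ARF8 group, and tasiRNAs from TAS3 the ARF2, ARF3 and ARF4 group. Of 40 tested genes of auxin response, 16 were higher and 0 lower without overlap, in 7 sets, and 90% of hits were antisense. For the group of ARF10, ARF16 and ARF17, 12 of 12 tested genes were higher, in 3 sets of near-equal counts. Its hits summed to 129, 167 and 298 CPM early and 482, 479 and 488 CPM late, 99.5% antisense, and shared reads may be counted several times in these sums. Within it, Glyma.04G254200, an ARF17 gene of a set of 10, had 10.5, 13.5 and 24.7 CPM early and 39.9, 39.5 and 40.3 CPM late. The late libraries are almost level while the early ones increase with stage (16.2 ± 7.45 against 39.9 ± 0.397 CPM, 1.35 ± 0.43 log2, edgeR adjusted p = 0.229). The leaf library held 15.6 CPM, close to the early mean.

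Among the genes of ARF2, ARF3 and ARF4, 2 of 9 were higher without overlap, and both are ARF2 genes. Glyma.06G164900 had 3.98, 2.97 and 5.17 CPM early and 16.0, 16.1 and 25.9 CPM late, 99.9% of them antisense. Its difference of 2.34 ± 0.37 log2 had an edgeR adjusted p of 0.0884 and a DESeq2 adjusted p of 4.19e-05. Glyma.04G200600 had 9.54, 6.60 and 5.87 CPM early and 17.3, 17.6 and 26.8 CPM late, a difference of 1.61 ± 0.29 log2 (edgeR adjusted p = 0.0886). In its sense hits alone the difference was −1.27 log2. In the ARF6 and ARF8 group, with hits on both strands (52.9% antisense), 2 of 11 were higher. Among them the ARF8 gene Glyma.13G221400 had 1.12, 1.08 and 0.995 CPM early and 1.99, 3.57 and 3.63 CPM late, 54.2% of them antisense. The auxin receptors TIR1 and AFB, targets of miR393, summed to 2.28, 3.81 and 4.63 CPM early and 4.02, 14.2 and 13.7 CPM late. Glyma.16G050500 (AFB3) had 0.927, 1.50 and 1.99 CPM early and 1.63, 6.59 and 6.31 CPM late, overlapping because stage 5 lies with the early libraries.

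**Figure D4:**
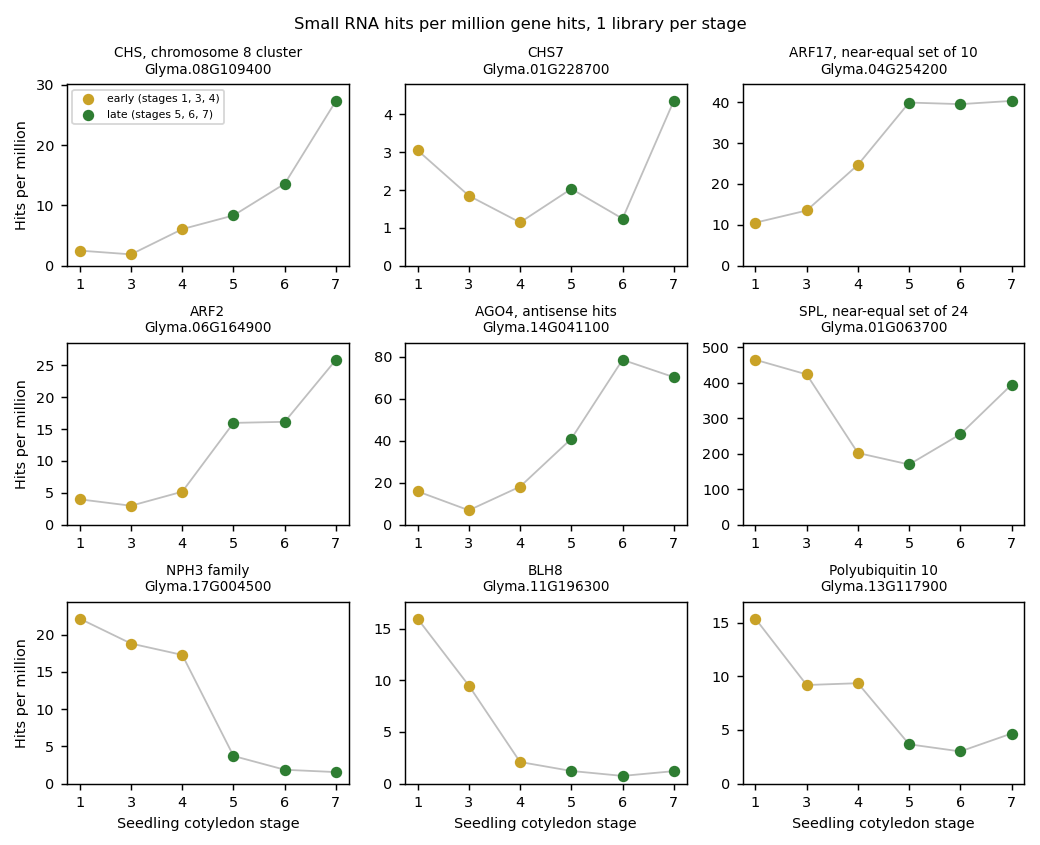
CPM (y axes, starting at 0, scales differ) of 9 genes by cotyledon stage (x axis, 1 library per point, early in yellow, late in green). The late values of CHS of the chromosome 8 cluster (8.33 to 27.3), ARF17 (39.5 to 40.3), ARF2 and the AGO4 gene Glyma.14G041100 lie above the early ones, those of NPH3, BLH8 and polyubiquitin 10 below them, and CHS7 and SPL overlap.

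Summed hits on SPL and class III HD-ZIP genes were lowest around emergence, and the groups overlapped in these sums. SPL genes promote the change from juvenile to adult growth and are targets of miR156. Hits on them, 99.4% antisense, summed to 12126, 10978 and 5226 CPM at stages 1, 3 and 4 and to 4448, 6464 and 9963 CPM at stages 5, 6 and 7. Stages 4 and 5 were the lowest, and leaf held 136 CPM. These sums, too, may count shared reads several times. Of 34 tested genes, 0 were higher and 1 lower without overlap. Glyma.01G063700, in a set of 24 genes, had 465, 424 and 202 CPM early and 170, 255 and 395 CPM late (−0.28 ± 0.40 log2, edgeR adjusted p = 0.767). The lower gene, Glyma.11G083900, is an SPL5 gene with mostly sense hits, at 25.9, 15.3 and 11.7 CPM early and 10.4, 7.91 and 11.1 CPM late.

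Class III HD-ZIP genes, which set the upper side of leaves and are targets of miR166, were in sum also lowest at stages 4 and 5. Summed hits, 100.0% antisense, were 4382, 3876 and 1831 CPM early and 1112, 3707 and 5373 CPM late. The 14 tested genes form 3 sets of near-equal counts, so the sums may count shared reads several times. Of them 0 were higher and 1 lower without overlap. Glyma.08G252101, on the lower side, had 9.61, 6.15 and 4.43 CPM early and 4.19, 3.60 and 3.13 CPM late, with stage 7 the lowest. Glyma.08G201900 had 552, 548 and 300 CPM early and 178, 601 and 924 CPM late, and Glyma.04G085000, a homeobox gene 8 member, had 198, 138 and 40.2 CPM early and 26.2, 85.9 and 90.2 CPM late. In the former stage 7 is the highest library and in the latter stage 1. The GAMYB-like genes, targets of miR159 that act in gibberellin response, overlapped as well. The MYB33 gene Glyma.04G125700 had 3490, 2920 and 2188 CPM early and 2430, 3397 and 3486 CPM late (0.26 ± 0.31 log2, edgeR adjusted p = 0.721), against 202 CPM in leaf. Of the whole MYB list, 10 of 89 were higher (11.2%, beside 9.66% of all tested genes) and 5 lower (5.62%, beside 8.98%). Among them Glyma.11G021600, described as MYB103, had 0.386, 0.384 and 0.298 CPM early and 1.34, 1.92 and 2.07 CPM late, all antisense (2.42 ± 0.41 log2, edgeR adjusted p = 0.0884). Glyma.01G190100, described as MYB73, was lower, with 25.5, 18.5 and 13.1 CPM early and 7.68, 5.42 and 7.99 CPM late.

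Genes of RNA silencing itself are targets of small RNAs. Of 15 tested, 2 were higher and 2 lower without overlap (13.3% each, beside 9.66 and 8.98% of all tested genes). Glyma.14G041100, an Argonaute gene with the Arabidopsis symbol AGO4, had 15.9, 6.84 and 18.1 CPM early and 40.9, 78.6 and 70.3 CPM late, all antisense. The late mean was 63.3 ± 19.8 CPM against 13.6 ± 5.96 early, a difference of 2.35 ± 0.48 log2 (edgeR adjusted p = 0.112, DESeq2 adjusted p = 0.000905). Another gene with the symbol AGO4, Glyma.02G189700, lay on the lower side, with 3.44, 1.54 and 1.09 CPM early and 0.569, 0.538 and 0.698 CPM late, 1.90% of them antisense (−1.57 ± 0.45 log2, edgeR adjusted p = 0.196). The 2 genes thus differ in direction and in strand. Glyma.02G189700 lies in a near-equal set of 2 genes, so its hits may be shared with another gene. DCL1, which cuts microRNA precursors and is itself a target of miR162, had 53.4, 46.3 and 31.8 CPM early and 37.1, 21.6 and 26.6 CPM late in Glyma.03G262100, overlapping at stages 4 and 5. Glyma.15G126700, another Argonaute gene, had 1.20, 4.30 and 4.18 CPM early and 3.90, 7.70 and 8.85 CPM late. PHO2, which limits phosphate uptake and is a target of miR399, had 2 of 4 genes lower. They form a near-equal pair, of which Glyma.13G179600 had 22.6, 17.3 and 17.7 CPM early and 12, 8.44 and 8.27 CPM late, 0.527% of them antisense.

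Resistance genes, the list with the most tested genes, leaned to higher values late in development. Plant nucleotide-binding leucine-rich repeat (NBS-LRR) genes recognise pathogens, and in legumes microRNAs set off phased short interfering RNAs from many of them. Of 372 tested genes, 56 were higher (15.1%) and 8 lower (2.15%) without overlap. Summed hits were 9232, 9061 and 8810 CPM early and 8251, 12719 and 17160 CPM late, so that the sum at stage 5 lies below the early libraries. Glyma.16G031600 had 2.66, 2.17 and 4.78 CPM early and 15.8, 13.7 and 22.8 CPM late, 15.5% of them antisense (2.50 ± 0.43 log2, edgeR adjusted p = 0.0884). Its sign turned when stage 2 was counted as early, at −1.72 log2. Glyma.16G182751, of a leucine-rich repeat family, had 0.193, 0.175 and 0.348 CPM early and 1.59, 2.83 and 3.38 CPM late, 99.2% of them antisense. With a TIR domain, Glyma.06G261400 had 9.50, 10.9 and 7.56 CPM early and 15.9, 27 and 35.5 CPM late, with hits on both strands (56.3% antisense). Glyma.12G236500 had 3.59, 3.14 and 2.24 CPM early and 5.00, 9.28 and 22.6 CPM late.

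Pentatricopeptide repeat genes, which edit and process organelle RNA, were near the background, with 13 higher and 14 lower of 151. Glyma.15G245700 had no hit in the early libraries and 0.650, 0.875 and 0.949 CPM late, which is at least 5.53-fold higher against a floor of 3 hits per library (0.149 CPM at stage 4). Genes of the NOD26-like intrinsic proteins NIP5 and NIP6, channels that carry boric acid in Arabidopsis, were singled out after their values were seen. The 8 genes summed to 11.1, 14.9 and 21.3 CPM early and 33.5, 81.4 and 157.2 CPM late, and 7 of 8 were higher without overlap. Glyma.14G109600 had 2.82, 3.91 and 4.48 CPM early and 8.33, 23.0 and 40.4 CPM late, on both strands (2.75 ± 0.59 log2, edgeR adjusted p = 0.12). Glyma.07G026900 had 1.04, 2.20 and 4.13 CPM early and 6.02, 13.2 and 25.4 CPM late. Values increase from stage to stage in both genes, and leaf held 15.1 and 13.9 CPM.

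Light signalling and clock genes were lower in 11 of 38 tested genes (28.9%) and higher in 2. Glyma.06G012600, described as cold, circadian rhythm and RNA binding, had 1.12, 1.71 and 3.63 CPM early and 0.650, 0.437 and 0.698 CPM late. Of the higher genes, Glyma.03G170300, a phytochrome interacting factor 3-like gene, had 4.40, 4.09 and 3.48 CPM early and 13, 7.43 and 9.05 CPM late, 95.3% of them antisense. The blue light receptor cryptochrome 1, Glyma.06G103200, had 1.35, 1.36 and 3.28 CPM early and 17.2, 3.40 and 4.02 CPM late, with stage 5 far above the rest. Phytochrome A, which senses light in dark-grown seedlings, overlapped between the groups. Glyma.10G141400 had 319, 225 and 247 CPM early and 179, 691 and 642 CPM late, 0.945% of them antisense. Near-equal counts lay on Glyma.09G216400, with 99.8% antisense hits, so the hits cannot be assigned to phytochrome A alone. EIN3 family genes act in ethylene signalling, which shapes the seedling below ground, and were named after their values were seen. They summed to 17.5, 10.8 and 13.8 CPM early and 7.32, 2.46 and 8.46 CPM late, with 8 of 8 tested genes lower without overlap. Glyma.13G076700 had 2.36, 1.43 and 1.94 CPM early and 0.976, 0.404 and 1.14 CPM late (−1.10 ± 0.43 log2, edgeR adjusted p = 0.327).

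The genes with the smallest p among those of at least 5 CPM on average and without overlap were led, on the higher side, by Glyma.05G060200, an O-fucosyltransferase family gene. It had 0.463, 0.733 and 0.945 CPM early and 9.72, 16.9 and 13.7 CPM late, 0.389% of them antisense. The means were 13.4 ± 3.59 CPM late and 0.714 ± 0.241 CPM early, and the separation is no result, since genes here were chosen for it. The difference of 4.34 ± 0.49 log2 had an edgeR adjusted p of 0.0884 and a DESeq2 adjusted p of 2.67e-12. Leaf had no hit on it, and it lies in a near-equal set of 2 genes. Glyma.09G188300, described as interacting with the NSP nuclear shuttle protein, had 7.14, 8.52 and 5.32 CPM early and 25.0, 58.6 and 46.0 CPM late. The calmodulin-binding gene Glyma.07G259400 had 1.93, 2.44 and 1.04 CPM early and 6.83, 14.3 and 13 CPM late. An integrin-linked kinase family gene, Glyma.02G288300, in a near-equal set of 2 genes, had 17.7, 22.5 and 15.1 CPM early and 50.3, 120 and 90.1 CPM late. In these 3 genes stage 6 is the highest, stage 4 the lowest and nearly all hits are sense.

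Mostly antisense and higher was the homeodomain-like gene Glyma.11G176500, with 8.80, 5.97 and 9.40 CPM early and 20.4, 35.2 and 36.3 CPM late. The tRNA synthetase gene Glyma.20G233300, which charges tRNA with serine, had 9.03, 6.43 and 4.23 CPM early and 16.1, 22.4 and 31.9 CPM late. In cell wall growth, 3 of 47 were higher (6.38%, beside 9.66% of all tested genes) and 6 lower (12.8%, beside 8.98%). Among the higher, the xyloglucan endotransglucosylase gene Glyma.08G107300 had 0.811, 1.01 and 0.647 CPM early and 3.70, 6.22 and 4.08 CPM late. This enzyme cuts and rejoins wall polymers. Cellulose synthase 6, Glyma.10G223450, lay on the lower side with 6.80, 11.2 and 8.41 CPM early and 2.36, 0.235 and 0.614 CPM late.

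NPH3 family genes, whose founding member acts in phototropism, led the lower side. Glyma.17G004500 had 22.1, 18.8 and 17.3 CPM early and 3.70, 1.85 and 1.54 CPM late, 98.8% of them antisense. Also chosen for not overlapping, it had means of 19.4 ± 2.49 CPM early and 2.36 ± 1.17 CPM late (−2.93 ± 0.39 log2, edgeR adjusted p = 0.0884, DESeq2 adjusted p = 5.48e-09). Nearly the same counts lay on the sense strand of Glyma.17G083400, which is described as a peptidyl-arginine deiminase and had 22.2, 18.7 and 17.3 CPM early and 3.70, 1.88 and 1.56 CPM late. Near-equal counts can arise where reads match both genes, and the 2 differences are not independent. Glyma.09G015900, another NPH3 family gene, had 63.8, 37.7 and 24.7 CPM early and 8.21, 8.31 and 8.57 CPM late, all antisense, at level values late. Over the family, 2 of 23 tested genes were higher (8.70%, beside 9.66% of all tested genes) and 4 lower (17.4%, beside 8.98%). The median was 0.09 log2, so the direction is not one of the family.

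BLH8 genes, homeodomain partners of KNOTTED-type factors named after their values were seen, summed to 65.1, 38.7 and 9 CPM early and 5.45, 4.27 and 5.78 CPM late, with 4 of 4 lower without overlap. Glyma.11G196300 had 16.0, 9.50 and 2.09 CPM early and 1.22, 0.740 and 1.20 CPM late, all antisense (−2.95 ± 0.62 log2, edgeR adjusted p = 0.116). Most of the difference lay between stages 3 and 4. Its counts are near-equal to those of Glyma.09G028100, a berberine bridge enzyme-like gene with sense hits, and of Glyma.11G059200, a SKU5 similar 17 gene with antisense hits. Another berberine gene, Glyma.08G080600, went the other way, with 0.309, 0.244 and 0.149 CPM early and 0.610, 5.32 and 9.44 CPM late, all antisense. The myosin-related gene Glyma.13G220300 had 26.7, 23.9 and 14.8 CPM early and 8.09, 5.38 and 4.72 CPM late. The malectin receptor kinase gene Glyma.08G249200, chosen after its values were seen, had 176, 181 and 246 CPM early and 77.3, 31.9 and 18.1 CPM late, nearly all antisense. It is highest at stage 4 and lower from stage 5 on.

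**Figure D5:**
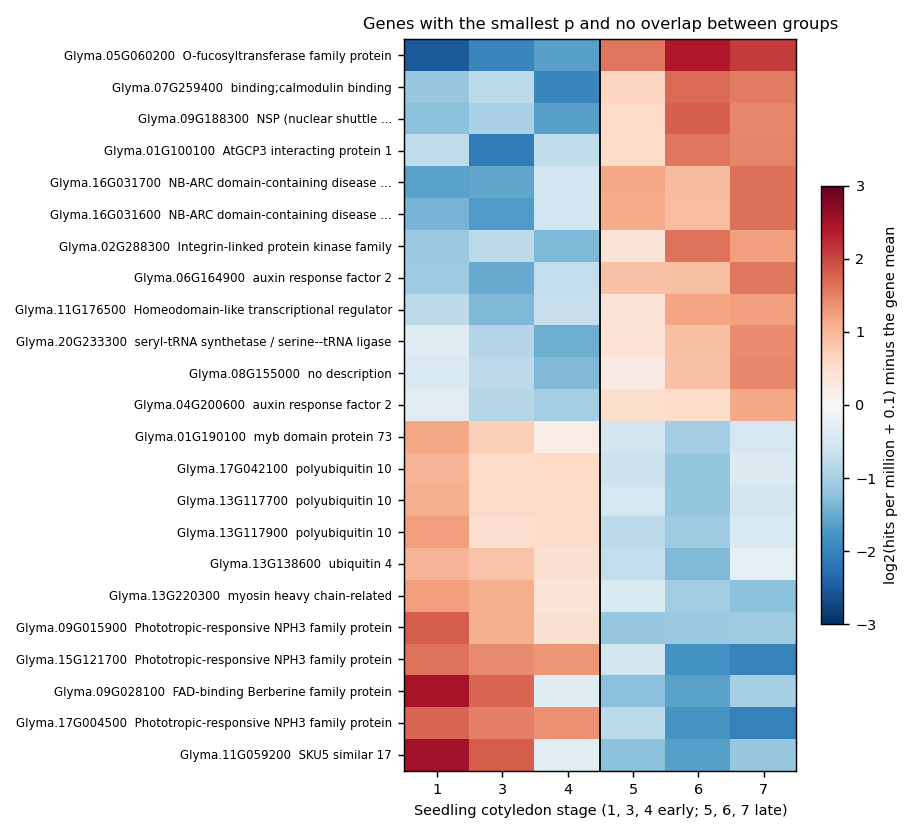
Level of each gene (y axis) in each library (x axis, cotyledon stage) on a log2 scale, minus the gene's mean over the 6 libraries (red above, blue below the mean). Genes are ordered by log2 fold change, from Glyma.05G060200 at 4.34 down to Glyma.11G059200 at −2.99, and were chosen for not overlapping between the groups, so their separation is no result.

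Of 256 genes with at least 100 CPM on average, in 160 sets of near-equal counts, 19 were higher (12 sets) and 36 lower (23 sets) without overlap. These counts stand beside 9.66% higher and 8.98% lower of all tested genes. Genes with no description carried most hits, 847527 to 883924 CPM in sum. Of 1813 of them tested, 161 were higher (8.88%) and 168 lower (9.27%), near the 9.66 and 8.98% of all tested genes. The undescribed gene Glyma.13G159700 had 25.7, 31.0 and 46.0 CPM early and 71.0, 243 and 456 CPM late (2.96 ± 0.67 log2, edgeR adjusted p = 0.131, DESeq2 adjusted p = 0.000598). Glyma.17G111800 had 43.9, 53.5 and 78.7 CPM early and 124, 362 and 652 CPM late. Both increase with every stage and stood at 9.14 and 12.4 CPM in leaf. A response regulator 2 gene, Glyma.07G079000, of cytokinin signalling, had 92.3, 66.4 and 125 CPM early and 245, 361 and 314 CPM late. These 3 genes were chosen after their values were seen. The most abundant gene in both groups, the undescribed Glyma.13G012400, held 118213, 131012 and 151009 CPM early and 149181, 124926 and 104450 CPM late, a difference of 0.01 ± 0.37 log2.

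The antisense share of all gene hits did not separate the groups. It was 62.6, 62.1 and 66.4% at stages 1, 3 and 4 and 67.8, 59.1 and 57.4% at stages 5, 6 and 7. The means were 63.7 ± 2.38% early and 61.4 ± 5.58% late (n = 3 each), a difference of −2.27 percentage points (two-sided exact permutation test, p = 0.6, where 3 against 3 cannot go below 0.1). Without the 20 most abundant genes of each library it was 64.5, 57.6 and 56.7% early and 42.7, 55.4 and 55.8% late, a difference of −8.29 points with no overlap between the groups and stage 5 the lowest. Among 4210 tested genes with at least 90% antisense hits 379 were higher and 408 lower, and among 4889 with at most 10% there were 461 and 530. Of 3501 genes with hits on both strands, 377 were higher (10.8%, beside 9.66% of all tested genes) and 193 lower (5.51%, beside 8.98%), with a median of 0.18 log2.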

How the data were processed

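Small RNA libraries from total RNA were analysed as gene hit counts. Per the file headers, the authors deposited counts of total and unique hits on the sense (pos) and antisense (neg) strand of 86256 transcript models. Alignment used Bowtie 1, per the submitters' processing notes, and the genome build, read lengths and mismatches were not found stated in the labels or headers. The authors also deposited library read totals, per the file headers, used here as library reads. The 104 count columns of other libraries were not used here. Here each gene was represented by its lowest splice model (52872 genes), and both strands were summed. Fits used edgeR 4.0.16 in R 4.3.3 (TMM scaling and the quasi-likelihood test, on genes kept by filterByExpr at its settings of 10 for min.count and 15 for min.total.count, Benjamini-Hochberg adjusted p under 0.05), with DESeq2 1.42.0 and limma 3.58.1 as alternatives. The fit was tested on simulated data. Recovery of changed genes was required there only at a low set spread, so the power of the test at the spread of these libraries is not given. CPM was computed over gene hits, without TMM factors. The antisense share was compared by an exact permutation test in Python 3.11.15 (scipy 1.17.1). A gene overlaps unless all 3 late CPM lie on the same side of all 3 early CPM.

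Named genes are the 10 of smallest p in each direction without overlap and at a mean of at least 5 CPM, the 6 likewise with at least 30% antisense hits, the 2 of smallest p of each list, the 5 most abundant in each group, CHS7 and CHS8, with sets of near-equal counts taken as 1. The largest changes among called genes were to be named, but edgeR called none, so the smallest p filled these places. The text gives values for part of the genes this rule names. The heat map shows those of smallest p without overlap, except 1 gene that is not reported here. Genes said to be chosen after their values were seen, and subfamily groupings, were added. Members and lists were chosen with earlier results of these data known. Leaf, dry and immature cotyledon and stage 2 libraries entered no main test, and no gene sequences were analysed here.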

Additional observations from a re-analysis of the deposited data

How the results depend on the processing

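Calls between late and early cotyledons depended on the tool, the filter and the border stages, and the cause was not tested. Against 0 genes higher and 0 lower in the 6-library edgeR fit, edgeR gave 2 higher without TMM factors and 233 higher and 54 lower with no low-count filter (35719 genes tested). DESeq2 gave 323 and 133, stage 2 added to the early group 192 and 44, and stages 1 and 3 against 6 and 7 gave 1059 and 595. Leaving out 1 library gave 0 to 78 higher and 0 to 29 lower. DESeq2 size factors, library reads as library size, unique hits, sense hits, antisense hits, identical counts merged and limma-voom (added after the data were seen) gave 0 each way. With library reads as size, the median of all tested genes lay at 0.26 log2, and 1643 genes were higher and 343 lower at an unadjusted p under 0.05, in place of 1096 and 644. The antisense share difference ranged from −5.45 to −0.25 points over the fits without 1 library. Over 1453 alternative values of 84 named genes, 1235 kept their direction and side of the threshold, 211 passed a threshold in the alternative and 7 turned sign. These were Glyma.01G063700 (0.13), Glyma.16G031600 (−1.72) and Glyma.18G281500 (−0.34) with stage 2 added, CHS7 Glyma.01G228700 without stage 7 (−0.12, against up to 0.71 without another library), Glyma.03G170300 (−0.52) and Glyma.04G200600 (−1.27) in sense hits, and Glyma.04G089800 in antisense hits (−0.47). No paired analysis was possible because the stage numbers of the early and late libraries do not overlap. With 3 hits at 0.0838 to 0.149 CPM, differences of genes near that level were not detectable.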

Other observations

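Sets of genes with near-equal counts often joined genes of opposite strands. Of 363 sets of 2 or more genes that averaged 5 CPM or above, 89 sets with 337 genes held members whose hits were mostly antisense beside members whose hits were mostly sense. In an example chosen after its values were seen, Glyma.11G233300, of a polyketide cyclase and lipid transport family, had 136, 205 and 197 CPM at stages 1, 3 and 4 and 304, 735 and 667 CPM at stages 5, 6 and 7, with 99.9% antisense hits. Glyma.04G217100, an Alba DNA/RNA-binding protein gene, had 136.5, 206 and 196 CPM early and 303, 734 and 667 CPM late, with 0% antisense hits. In these genes the strand alone does not tell a source from a target.

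Over genes kept by the filter on the 6 stage libraries, hits of the stages were less like the dry seed cotyledon and the leaf than like each other. Pearson's r of log2(CPM + 1) over 12600 genes was 0.688 between stage 7 and leaf and 0.745 between stage 7 and the dry cotyledon, against 0.907 or more between any 2 of stages 3 to 7. These libraries share the abundant small RNAs. The leaf and dry cotyledon libraries had no part in choosing the genes, which can favour likeness among the stages. The comparison is therefore no test, and r is a description.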
